A study of Saccharomyces cerevisiae with 18 samples.

Results

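RNA polymerase III transcribes transfer RNAs, 5S ribosomal RNA, the U6 spliceosomal RNA and other short noncoding RNAs. Its own subunits are encoded by protein-coding genes that RNA polymerase II transcribes, so their mRNAs can be followed by mRNA sequencing. The genes described here encode the subunits found in RNA polymerase III and in no other polymerase: RPO31, RET1, RPC82, RPC34, RPC31, RPC53, RPC37, RPC25, RPC17 and RPC11. These 10 genes were taken from the 6465 gene windows of the S. cerevisiae count tables by a rule that lists their names and uses no measured value. All 10 passed the filter on low counts, both for new RNA and for total RNA.

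The study combined auxin-induced removal of Bdf1 and Bdf2 with SLAM-seq in Saccharomyces cerevisiae. Bdf1 and Bdf2 are bromodomain proteins of the BET family, which bind acetylated histones and are linked to the general transcription factor TFIID. In SLAM-seq, cells take up 4-thiouracil (4tU), the RNA is alkylated with iodoacetamide, and a 4tU base then appears in the reads as a T-to-C conversion. Strain RDY73 carries BDF1-3XV5-mAID-URA3, BDF2-3XV5-mAID-kanMX and pGPD1-OsTIR1::HIS3, which expresses the plant F-box protein OsTIR1 that targets mAID-tagged proteins for degradation when auxin is present. Strain RDY234 has the same 3 modifications and also pBDF1-BDF1::TRP1, an untagged BDF1 copy. The tagged genes and OsTIR1 are therefore common to every culture, and neither strain is an untagged wild type.

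Each strain was sampled in 3 groups of 3 biological replicates, lettered A to C. The IAA group received 1 mM indole-3-acetic acid (IAA, an auxin) for 25 min and then 5 mM 4tU for 4 min. The DMSO group received solvent in place of IAA and then 4tU. The control group received neither IAA nor 4tU. Labelled S. pombe cells were added to every culture as a spike-in. Depth ran from 4177363 to 8541751 S. cerevisiae reads over the 18 libraries. A read was called labelled if it held 2 or more T-to-C conversions, and the 12 libraries given 4tU had 103348 to 574103 of these from S. cerevisiae. TRP1, the marker of the untagged BDF1 copy, averaged 14.1 ± 1.00 scaled reads in the DMSO libraries of RDY73 and 332 ± 31.2 in those of RDY234 (SD, n = 3 each), which fits the genotypes. The tables measure RNA and hold no measure of Bdf1 or Bdf2 protein.

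Below, labelled reads stand for new RNA and all reads for total RNA. Scaled reads are a gene's reads divided by the library's S. pombe reads, labelled or total to match, and brought back to the average S. pombe depth. A change is therefore a change per S. pombe read. In a bulk culture, fewer S. cerevisiae cells per spike-in cell and less RNA per cell cannot be told apart. Tests across genes used edgeR's quasi-likelihood fits, p-values were adjusted by the Benjamini-Hochberg method over every gene tested, and a gene was called at an adjusted p under 0.05.

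The enzyme is built from a catalytic core, a stalk and smaller assemblies. Rpo31 and Ret1 are its largest subunits and together form the active centre. Rpc82, Rpc34 and Rpc31 form a heterotrimer that acts in initiation, where Rpc34 contacts the TFIIIB subunit Brf1. Rpc53 and Rpc37 form a heterodimer related to TFIIF that acts in termination and reinitiation. Rpc25 and Rpc17 form the stalk, and Rpc11 is needed for RNA cleavage by the enzyme.

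The promoters of the 10 genes were read from the R64 genome, from 250 bases before the start codon to 50 after it. They were read with the results known, in which the genes moved largely together, as most tested genes did. No link between a motif and a change in RNA was tested. Yeast genes for RNA polymerase I and III subunits are known for a promoter element called PAC (polymerase A and C box), and many ribosome biogenesis genes for an element called RRPE. PAC was searched as GATGAG and its reverse complement CTCATC, and RRPE as AAAATTT and AAATTTT, so that AAAATTTT counts on both strands. PAC letters stood in 8 of the 10 promoters, against 20.4% of 5994 promoters of the same length. RRPE letters stood in 8 of the 10, against 23.2% of all promoters. The promoters of RPC17 and RPC11 had no PAC match, and those of RPC31 and RPC17 had no RRPE match. TATAAA or its reverse complement TTTATA stood in 6 of the 10, against 45.2% of all, and the Reb1 motif CGGGTAA or TTACCCG in 0 of the 10, against 7.09% of all.

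The stretches around the first PAC match of each promoter are shown for the 8 genes that had one, 5′ to 3′ on the strand of the gene. PAC matches, and RRPE matches lying wholly inside a stretch, are in capitals.
RPO31 (chrXV:544208-544273, minus strand): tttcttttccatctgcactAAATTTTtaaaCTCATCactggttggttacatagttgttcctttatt
RET1 (chrXV:733551-733616, minus strand): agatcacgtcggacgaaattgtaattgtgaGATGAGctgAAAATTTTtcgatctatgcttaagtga
RPC82 (chrXVI:919128-919193, minus strand): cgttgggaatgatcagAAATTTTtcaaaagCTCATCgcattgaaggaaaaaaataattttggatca
RPC34 (chrXIV:635323-635388, minus strand): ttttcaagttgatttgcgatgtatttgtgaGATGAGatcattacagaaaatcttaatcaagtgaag
RPC31 (chrXIV:348569-348634, minus strand): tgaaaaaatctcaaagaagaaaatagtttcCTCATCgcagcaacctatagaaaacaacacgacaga
RPC53 (chrIV:183093-183133, plus strand): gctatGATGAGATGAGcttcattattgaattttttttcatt
RPC37 (chrXI:487677-487742, plus strand): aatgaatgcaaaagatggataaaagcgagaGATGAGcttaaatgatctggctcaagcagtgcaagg
RPC25 (chrXI:176640-176705, minus strand): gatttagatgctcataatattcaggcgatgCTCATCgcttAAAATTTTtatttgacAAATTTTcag
The sequence and coordinates are those of the RefSeq copy of R64. The first PAC match began 61 to 129 bases before the start codon in RPO31, RET1, RPC82, RPC34, RPC31 and RPC37, and 194 and 245 bases before it in RPC25 and RPC53. The stretch of RPC53 is shorter because its match lies close to the edge of the window searched, and 2 of its matches share bases. An RRPE match of RPC34 began 95 bases before the start codon, and its last letters open the RPC34 stretch in small letters. RPC37 had 2 further matches, 1 of which overlaps the start codon and 1 of which lies within the coding sequence. A match is a run of letters and was not tested as a binding site.

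In RDY73, IAA lowered the mRNA of the RNA polymerase III subunit genes as a group, in new RNA and in total RNA. The 10 genes together had 539, 752 and 686 scaled total reads in the 3 RDY73 libraries with IAA, against 2290, 2608 and 2093 with DMSO. In new RNA they had 54.1, 51.8 and 43.5 scaled labelled reads with IAA, against 208, 330 and 255 with DMSO. The groups did not overlap on either measure. In RDY234 the summed total reads were 3413, 3143 and 3597 with IAA and 3859, 3911 and 3790 with DMSO, and the labelled reads 479, 481 and 535 with IAA and 574, 524 and 596 with DMSO. The RDY234 groups did not overlap in total reads either, by a much smaller gap, and overlapped in labelled reads.

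Most genes of the genome moved the same way per S. pombe read, and the members' counts are read against that. New RNA in RDY73 was lower with IAA for 9 of the 10 subunit genes, with 83.9% of 5195 tested genes called lower and 0.385% higher. The median log2 change of the 10 genes was −2.34, and that of all tested genes −1.97. Total RNA was lower for all 10, with 77.9% of 6100 tested genes called lower and 1.16% higher. Here the median of the 10 was −1.95, and that of all tested genes −1.24.

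**Figure D1:**
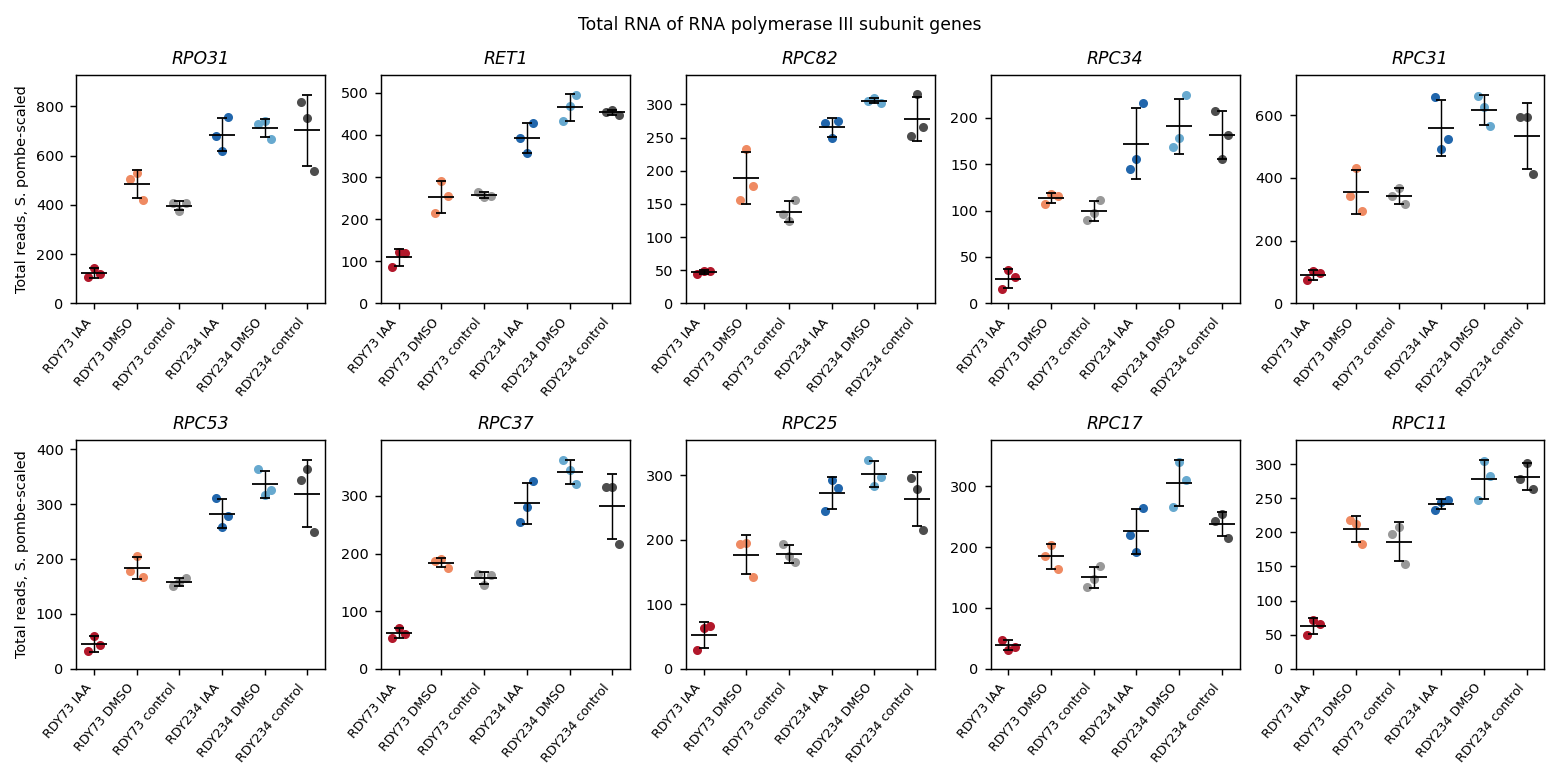
Total reads per library (circles), scaled to S. pombe reads, for the 10 subunit genes, with bars for mean ± SD of 3 libraries. In every panel the RDY73 libraries with IAA lie below the RDY73 libraries with DMSO, and the RDY234 groups have the highest means. Single RDY234 libraries overlap RDY73 libraries with DMSO for some genes, such as RPC31 and RPC17.

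Total RNA is given first by role, because its counts are deeper. RPO31 (YOR116C, R64 chromosome XV, 539513 to 544145, minus strand) had 105, 144 and 120 scaled total reads in RDY73 with IAA, against 505, 530 and 418 with DMSO. The groups were far apart, with a log2 change of −1.97 ± 0.15 (SE, adjusted p = 7.4e-15). RET1 (YOR207C, chromosome XV, 729758 to 733457, minus strand) had 86.3, 122 and 120 scaled total reads with IAA, against 214, 290 and 255 with DMSO. Its change of −1.19 ± 0.15 (adjusted p = 1.11e-09) was the smallest of the 10. Coordinates here and below are those of the counting windows, which reach from the gene's start to 250 bp beyond its annotated end.

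The initiation heterotrimer changed by nearly equal amounts. RPC82 (YPR190C, chromosome XVI, 916827 to 919041, minus strand) had 44.6, 49.2 and 49.1 scaled total reads in RDY73 with IAA, against 156, 232 and 178 with DMSO, a log2 change of −1.97 ± 0.17. RPC34 (YNR003C, chromosome XIV, 634094 to 635297, minus strand) had 15.9, 35.7 and 28.8 with IAA, against 108, 118 and 116 with DMSO, a log2 change of −2.06 ± 0.23. The libraries with IAA were lower than all those with DMSO for both genes. RPC31 (YNL151C, chromosome XIV, 347516 to 348521, minus strand) had 74.4, 104 and 95.6 with IAA, against 344, 430 and 293 with DMSO, a log2 change of −1.94 ± 0.17. The largest adjusted p of the 3 genes was 4.53e-11, for RPC34.

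In the termination and reinitiation pair, RPC53 (YDL150W, plus strand of chromosome IV, 183343 to 184861) had 31.7, 59.4 and 44.0 scaled total reads in RDY73 with IAA, against 178, 205 and 168 with DMSO. RPC37 (YKR025W, chromosome XI, 487770 to 488868, plus strand) had 53.6, 70.5 and 60.0 with IAA, against 187, 190 and 176 with DMSO. Both fell in every library with IAA relative to every library with DMSO, RPC53 by 4.01-fold (log2 SE 0.19, adjusted p = 4.78e-13) and RPC37 by 2.98-fold (log2 SE 0.17, adjusted p = 2.6e-11).

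Of the stalk genes, RPC25 (YKL144C, chromosome XI, 175593 to 176481, minus strand) had 29.8, 62.8 and 66.0 scaled total reads in RDY73 with IAA, against 194, 195 and 142 with DMSO. RPC17 (YJL011C, chromosome X, 414035 to 414770, minus strand) had 47.6, 31.4 and 36.4 with IAA, against 186, 204 and 164 with DMSO. Their log2 changes were −1.71 ± 0.19 (adjusted p = 8.68e-11) and −2.26 ± 0.19 (adjusted p = 2.89e-14), and that of RPC17, whose promoter had neither a PAC nor an RRPE match, was the lowest of the 10. RPC11 (YDR045C, chromosome IV, 547728 to 548310, minus strand), the cleavage subunit, had 49.6, 72.2 and 66.0 with IAA, against 218, 213 and 183 with DMSO. Its change was −1.70 ± 0.17 (adjusted p = 1.95e-12). For all 10 genes the libraries with IAA and DMSO did not overlap, as for 77.8% of tested genes.

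The test above compares each gene with no change per S. pombe read, so its calls include a fall shared by most genes. With TMM normalization over the S. cerevisiae genes in place of the spike-in, called relative scaling below, the median change in total RNA was −0.80 for the 10 genes and −0.10 for all tested genes. In new RNA it was −0.65 for the 10 and −0.29 for all tested genes. On that scale total RNA was lower with IAA in RDY73 for 9 of the 10 genes, with 30.8% of tested genes called lower and 29.6% called higher. The changes of those 9 ran from −1.11 ± 0.17 for RPC17 (adjusted p = 1.33e-06) to −0.44 ± 0.14 for RPC37 (adjusted p = 0.00723). RET1 was the exception, at −0.05 ± 0.12 (adjusted p = 0.739). By the changes per S. pombe read, RET1 stood at the 52.4th percentile of all tested genes, and the other 9 between the 3.49th and the 29.8th. Counted per 1000000 S. cerevisiae reads, the 10 genes together had 138 ± 15.3 reads in RDY73 with IAA and 398 ± 20.9 with DMSO (SD, n = 3 each). In RDY234 they had 494 ± 20.7 with IAA and 548 ± 9.65 with DMSO, also without overlap.

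The ratio of a gene's reads to those of RPO31 in the same library needs no scaling at all, and RET1 was the gene whose ratio moved most. RET1 had 0.821, 0.847 and 1.00 reads per RPO31 read in RDY73 with IAA, against 0.424, 0.548 and 0.610 with DMSO. In the RDY73 control libraries the ratio was 0.650, 0.670 and 0.626, also below all libraries with IAA. The log2 difference between IAA and DMSO was 0.77, with a two-sided exact permutation p of 0.1, the smallest that 3 libraries against 3 allow, and 0.257 after adjustment over 18 ratios. In RDY234 the ratio was 0.578, 0.576 and 0.569 with IAA and 0.593, 0.634 and 0.742 with DMSO, a difference of −0.19 (exact permutation p = 0.1). RPC37 and RPC11 were the other genes whose ratios did not overlap in RDY73, at log2 differences of 0.39 and 0.26 (exact permutation p = 0.1 each). The ratios of RPC82, RPC34, RPC31, RPC53, RPC25 and RPC17 overlapped between IAA and DMSO in RDY73. In RDY234 the ratios of RPC82, RPC37 and RPC17 also did not overlap, at −0.15, −0.20 and −0.38 (exact permutation p = 0.1 each). Groups were thus separate for 3 of 9 ratios in RDY73 and 4 of 9 in RDY234. All 7 had an adjusted p of 0.257. The ratios share the RPO31 reads and are not independent of each other. RPO31 had the highest total RNA change of the 10 in RDY234, at −0.06 ± 0.14. How many other genes had separate ratios to RPO31 was not computed, so the 2 counts have no reference. The RET1 window overlaps that of NOC2 on the opposite strand by 137 bp, and whether the counting used strand is not given in the sources used here.

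**Figure D2:**
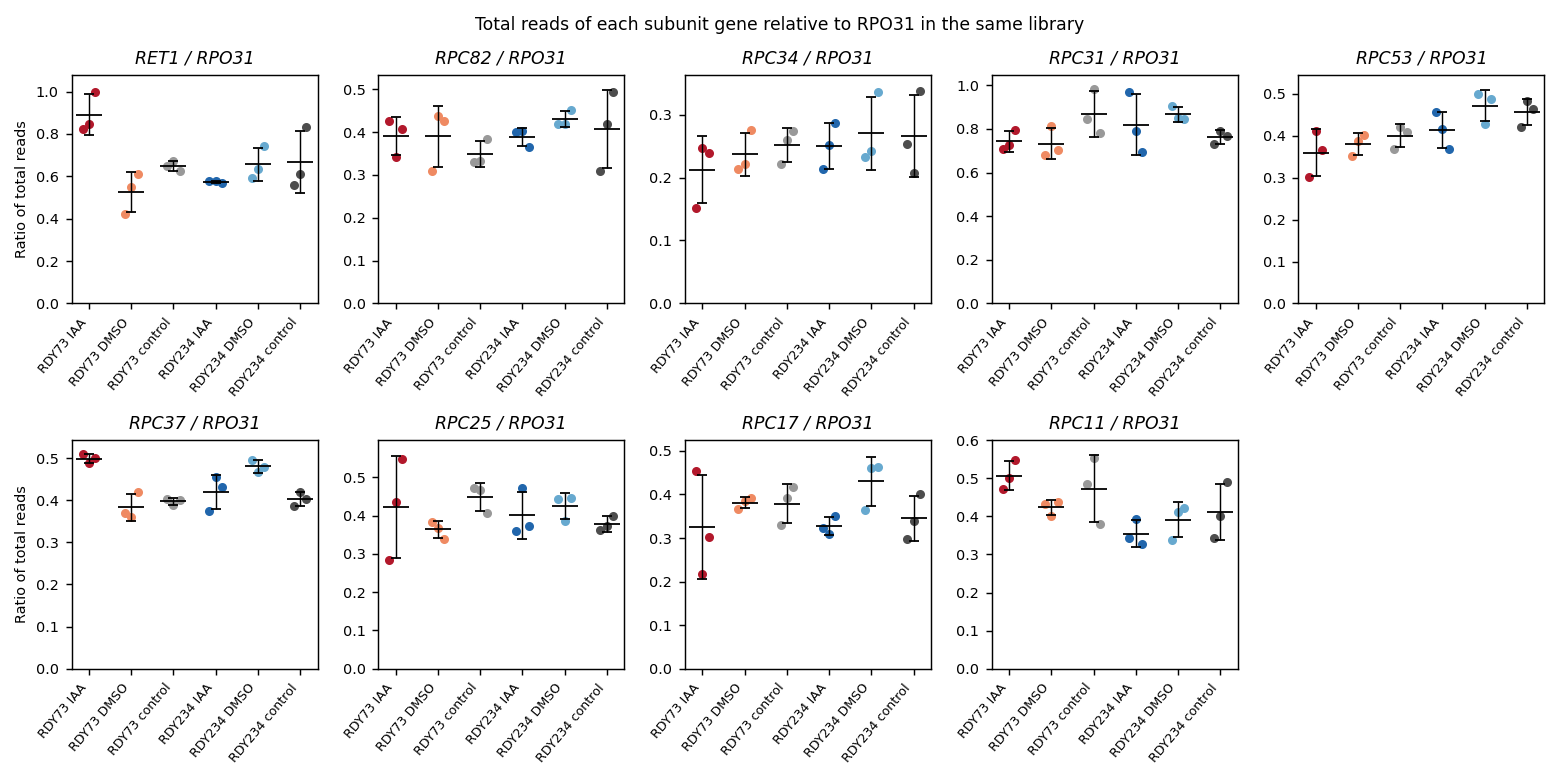
Ratio of each gene's total reads to the RPO31 reads of the same library (circles), with bars for mean ± SD of 3 libraries. The RET1 ratio lies between 0.821 and 1.00 in RDY73 with IAA and between 0.424 and 0.610 in RDY73 with DMSO.

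New RNA showed wider differences between the genes, on far fewer reads. With IAA in RDY73, each gene had 2 to 38 labelled reads over the 3 libraries together. RPO31 had 7.15, 9.20 and 17.4 scaled labelled reads in RDY73 with IAA, against 54.7, 76.1 and 52.1 with DMSO, a log2 change of −2.39 ± 0.30 (adjusted p = 6.73e-14). RET1 had 7.15, 6.69 and 5.22 with IAA, against 21.0, 38.1 and 32.3 with DMSO, a change of −2.22 ± 0.41 (adjusted p = 1.9e-07). Both core genes were lower with IAA in every library, and their changes lay within 1 SE of each other.

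RPC34 and RPC37 had the lowest new RNA values. RPC34 had 0, 0 and 1.74 scaled labelled reads in RDY73 with IAA, against 10.5, 15.2 and 12.5 with DMSO. These rest on 2 labelled reads against 32, a ratio per labelled S. pombe read of 0.0482 with an exact 95% interval of 0.0056 to 0.189 that covers counting error only. RPC37 had 0, 1.67 and 0.87 with IAA, against 17.9, 18.3 and 15.6 with DMSO, or 3 labelled reads against 44, a ratio of 0.0526 with an interval of 0.0105 to 0.164. The fitted log2 changes were −4.13 ± 0.78 for RPC34 (adjusted p = 4.9e-07) and −4.08 ± 0.66 for RPC37 (adjusted p = 4.56e-09). Without RDY73 IAA replicate C, which holds both of its labelled reads, RPC34 had 0 labelled reads with IAA and was at least 9.04-fold lower, taking a floor of 3 labelled reads over the 2 remaining libraries. Without replicate B, RPC37 had 1 labelled read with IAA, a ratio of 0.0274 with an interval of 0.000679 to 0.161. When reads with at least 1 conversion were counted, the changes were −3.14 for RPC34 and −1.99 for RPC37, both still called. That count adds many reads, and many of them arise without 4tU. RDY73 control replicate A, without 4tU, had 321326 of 6541650 reads with at least 1 conversion and 12158 with 2 or more. RDY73 IAA replicate A had 412825 and 103348 of 4525136 reads.

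The other members of those assemblies also fell. RPC82 had 11.2, 4.18 and 3.48 scaled labelled reads in RDY73 with IAA, against 18.9, 32.0 and 39.6 with DMSO, a log2 change of −2.29 ± 0.41 (adjusted p = 1.37e-07) that was −2.93 without IAA replicate A. RPC31 had 4.09, 7.52 and 0.87 with IAA, against 25.3, 41.1 and 26.0 with DMSO, a change of −2.80 ± 0.43 (adjusted p = 6.45e-10) that was −3.60 without IAA replicate B. The library left out was the highest with IAA in each gene. For both genes every library with IAA was lower than every library with DMSO. RPC53 had 5.11, 2.51 and 4.35 with IAA, against 24.2, 25.9 and 34.4 with DMSO, a change of −2.81 ± 0.45 (adjusted p = 2.46e-09).

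The stalk and cleavage subunit genes had the smallest separation in new RNA. RPC17 had 9.19, 4.18 and 1.74 scaled labelled reads in RDY73 with IAA, against 11.6, 41.1 and 21.9 with DMSO, and changed by −2.26 ± 0.45 (adjusted p = 1.56e-06), or by −2.93 without IAA replicate A. RPC25 had 2.04, 10.0 and 3.48 with IAA, against 16.8, 27.4 and 8.34 with DMSO, so that replicate B with IAA overlapped replicate C with DMSO. Its change was −1.62 ± 0.48 (adjusted p = 0.00111), or −2.52 without IAA replicate B. For RPC17 and RPC25 alike, the library left out was the highest with IAA. RPC11 had 8.17, 5.85 and 4.35 with IAA, against 7.37, 15.2 and 12.5 with DMSO, which overlap.

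RPC11 was the gene whose change in new RNA missed the threshold, at −0.90 ± 0.52 (adjusted p = 0.0947). It had 20 labelled reads with IAA and 29 with DMSO, a ratio per labelled S. pombe read of 0.532 with a 95% counting interval of 0.285 to 0.974. It was called lower with reads of at least 1 conversion (−1.77, adjusted p = 1.9e-07) and without DMSO replicate A (−1.16, adjusted p = 0.0487). The RDY73 libraries did not overlap for 8 of the 10 genes, all but RPC25 and RPC11, with 79.4% of tested genes not overlapping in that direction. Under relative scaling 2 of the 10 were called lower, RPC34 (−2.63 ± 0.91, adjusted p = 0.0183) and RPC37 (−2.52 ± 0.76, adjusted p = 0.00547), with 11.6% of tested genes called lower and 16.2% higher. RPC25 was at 0.08 and RPC11 at 0.78 on that scale, neither of them called.

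**Figure D3:**
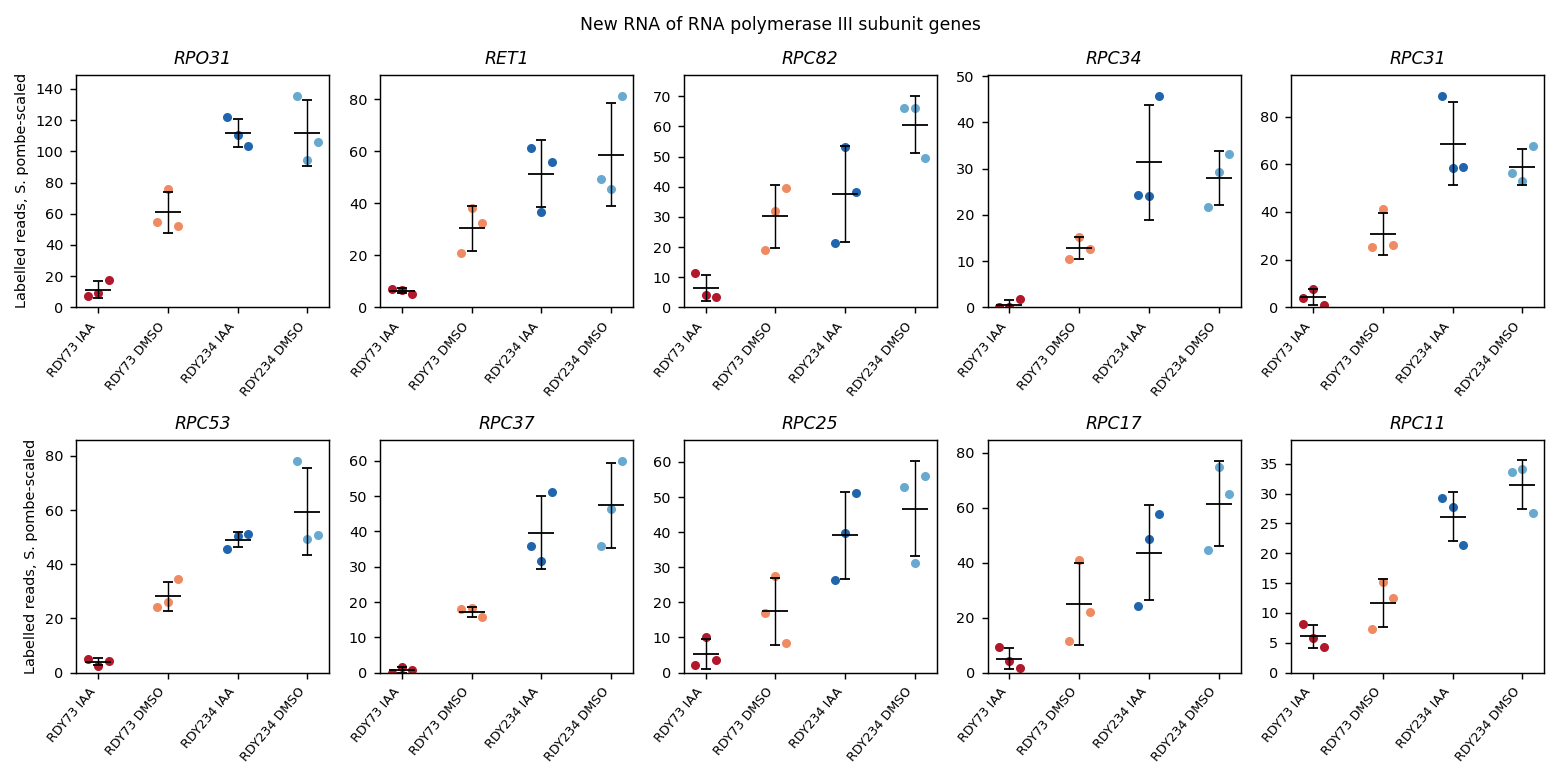
Labelled reads per library (circles), scaled to labelled S. pombe reads, for the 12 libraries given 4tU, with bars for mean ± SD of 3 libraries. RDY73 with IAA lies below RDY73 with DMSO in all libraries for 8 genes and overlaps it for RPC25 and RPC11.

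The labelled share of a gene's reads relates its new to its total RNA within a library and uses no spike-in. Over the 10 genes and 3 libraries, 7.37% of reads were labelled in RDY73 with IAA, against 10.7% with DMSO and 0.14% in the control without 4tU. In RDY234 the shares were 15.5% with IAA, 15.6% with DMSO and 0.413% in the control. The median share over 5144 genes with a mean of at least 50 reads was 5.42% in RDY73 with IAA, 9.26% in RDY73 with DMSO, 14.7% in RDY234 with IAA and 14.8% in RDY234 with DMSO. The share of RPC37 was 1.44% in RDY73 with IAA and 8.93% with DMSO, and that of RPC34 was 2.17% with IAA and 10.5% with DMSO. RET1 had 5.63% with IAA and 11.4% with DMSO. The pooled share was not lower with IAA in RPC11, RPC25 and RPC17. RPC11 had 9.39% with IAA and 5.30% with DMSO, and RPC25 had 9.89% with IAA and 8.97% with DMSO. RPC17 had 12.5% with IAA and 12.1% with DMSO when pooled, but 12.3 ± 7.13% with IAA and 12.7 ± 6.85% with DMSO as means of libraries (SD, n = 3 each). For RPC25 the means were 9.34 ± 6.01% with IAA and 9.20 ± 4.19% with DMSO, a gap far inside the spread. The other shares pool 3 libraries, and no share was tested.

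**Figure D4:**
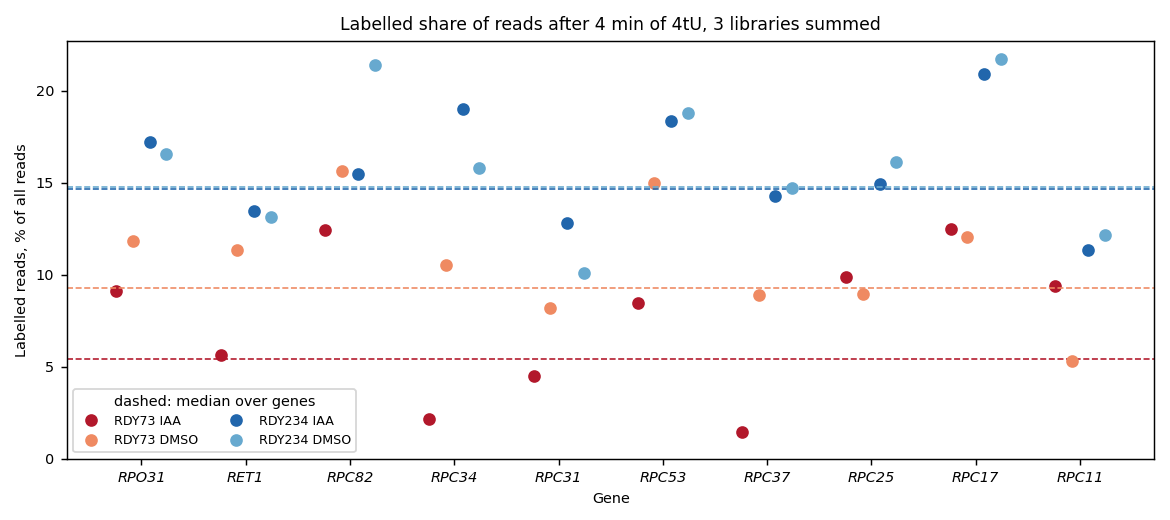
Labelled reads as a percent of all reads of each gene, 3 libraries summed, by group. Dashed lines mark the median over 5144 genes in each group. RPC34 (2.17%) and RPC37 (1.44%) lie lowest in RDY73 with IAA.

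With the untagged BDF1 copy, in RDY234, no change with IAA was called for any of the 10 genes. New RNA changes ran from −0.67 ± 0.29 for RPC82 to 0.22 ± 0.26 for RPC31, with a median of −0.25 against −0.12 over all tested genes. Of the 10, 0 were called by edgeR, with 0.0192% of tested genes called lower and 0.0192% higher, and 0 by DESeq2. At an unadjusted p under 0.05 there was 1 of the 10, RPC82, beside 245 of 5195 tested genes. RPC82 had 21.4, 53.3 and 38.2 scaled labelled reads with IAA and 66.0, 66.2 and 49.7 with DMSO. In total RNA 0 were called by edgeR, with 0.0164% of tested genes called lower and 0.0164% higher, and 0 by DESeq2, and the median was −0.21 against −0.13 over all tested genes. Here too 1 of the 10 had an unadjusted p under 0.05, beside 482 of 6100 tested genes. That gene was RPC17, at −0.45 ± 0.15 (adjusted p = 0.581). It had 220, 192 and 265 scaled total reads with IAA and 266, 340 and 310 with DMSO, just short of overlap. All libraries with IAA were lower than all with DMSO for 4 genes, RET1, RPC82, RPC53 and RPC17, as for 17.3% of tested genes.

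The difference between the strains was tested directly, as the IAA effect in RDY73 minus that in RDY234. In total RNA it was lower than 0 for all 10 genes, with 69.4% of tested genes called lower, 0.541% called higher and medians of −1.76 for the 10 and −1.10 for all tested genes. RPO31 and RPC34 had the lowest values, at −1.91 ± 0.21 and −1.91 ± 0.29, and RET1 the highest, at −0.95 ± 0.20 (adjusted p = 5.39e-05). Under relative scaling 8 of the 10 were called lower, with 20.9% of tested genes called lower and 23.1% higher. RET1 was then at 0.07 ± 0.16 (adjusted p = 0.746) and RPC37 at −0.31 ± 0.17 (adjusted p = 0.148).

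In new RNA the difference between the strains was called lower for 9 of the 10, with 74.2% of tested genes called lower and 0.231% higher. RPC34 had the lowest value, −4.28 ± 0.88 (adjusted p = 8e-06), and RPC11 was not called, at −0.63 ± 0.63 (adjusted p = 0.35). RPC25 was at −1.38 ± 0.57 (adjusted p = 0.0225), a call that was lost when any 1 of 5 libraries was left out, with values of −0.97 to −1.15. Those were RDY73 IAA replicates A and C, RDY73 DMSO replicate B, RDY234 IAA replicate C and RDY234 DMSO replicate B. Leaving out single RDY73 IAA libraries moved some values further from 0. They were −2.26 for RPC82 and −2.44 for RPC17 without replicate A, and −3.82 for RPC31 and −2.28 for RPC25 without replicate B. Each of these left out the gene's highest RDY73 library with IAA. No fitted value is given for RPC34 without replicate C or RPC37 without replicate B, where 0 and 1 labelled reads with IAA remained. Under relative scaling 3 genes were called, RPC34, RPC31 and RPC37, with 6.74% of tested genes called lower and 11.6% higher.

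**Figure D5:**
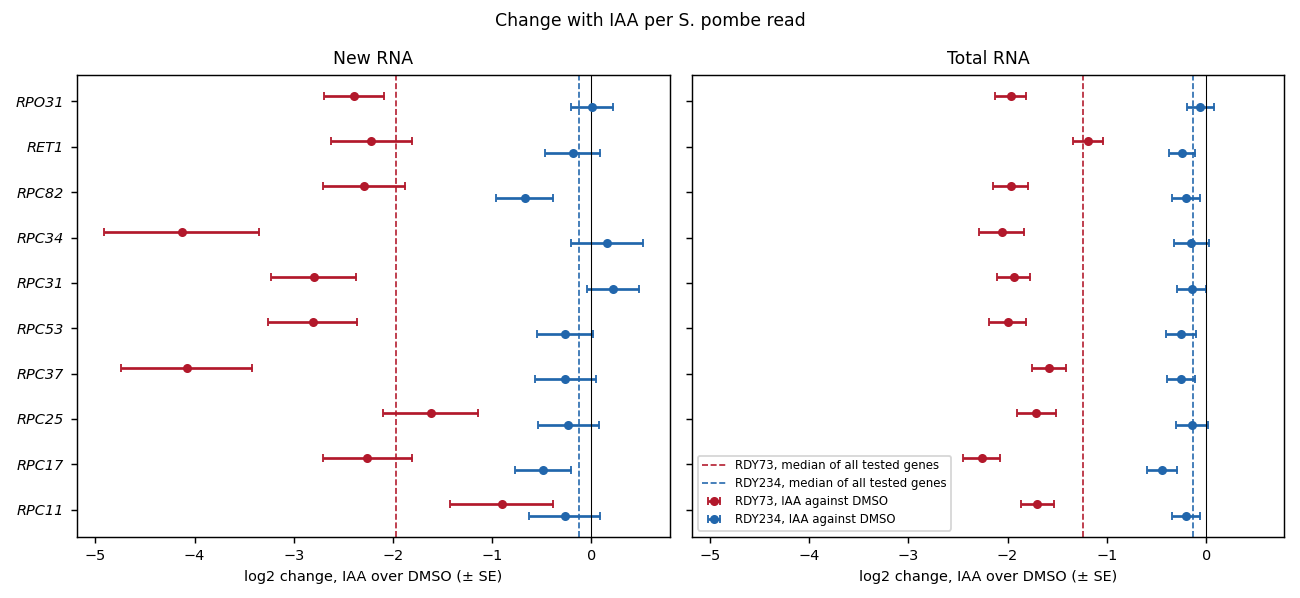
Log2 change with IAA over DMSO per S. pombe read (circles) ± SE for each gene in new RNA and total RNA, in RDY73 and RDY234. Dashed lines mark the median of all tested genes. In RDY73 total RNA, RET1 (−1.19) lies near the all-gene median of −1.24 and the other 9 genes lie below it.

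The strains also differed without IAA. In control libraries RPO31 had 408, 375 and 407 scaled total reads in RDY73, against 816, 752 and 538 in RDY234. All 10 genes were called lower in RDY73 controls than in RDY234 controls, with 77.5% of tested genes called lower and 2.21% higher. The median log2 difference was −0.82 for the 10 and −0.68 for all tested genes, and single genes ran from −1.01 ± 0.16 for RPC53 to −0.56 ± 0.17 for RPC25. In new RNA, RDY73 with DMSO was lower than RDY234 with DMSO for all 10 genes, with 79.5% of tested genes called lower, 0.308% called higher and medians of −1.10 and −1.13. Over all S. cerevisiae reads, 3.76% to 4.38% were labelled in RDY73 with DMSO and 7.17% to 7.41% in RDY234 with DMSO. For S. pombe reads the shares were 2.14% to 2.25% and 2.34% to 2.56%. Whether the strains differed in 4tU uptake was not tested. Relative scaling left 2 calls in the total RNA of controls, RPC82 (−0.34 ± 0.13, adjusted p = 0.0463) and RPC53 (−0.34 ± 0.12, adjusted p = 0.0401), with 9.21% of tested genes called lower and 14.3% higher. In new RNA it left 0 calls by edgeR, 0 at an unadjusted p under 0.05 and 0 by DESeq2's median of ratios, with 2.96% of tested genes called lower and 5.64% higher. The IAA and strain comparisons share the DMSO libraries.

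Labelling itself went with no called change in these genes. Total RNA with DMSO and 4tU was compared with the control without 4tU, and 0 of the 10 were called by edgeR or DESeq2 in either strain. In RDY73, 0.508% of tested genes were called higher and 0.148% lower, and in RDY234 0.393% higher and 0.18% lower. At an unadjusted p under 0.05 there were 2 of the 10 in RDY73, beside 367 of 6100 tested genes. Both were higher with 4tU: RPC82 at 0.43 ± 0.16 (adjusted p = 0.388) and RPO31 at 0.28 ± 0.14 (adjusted p = 0.83). In RDY234 there was 1 of the 10, RPC17, at 0.37 ± 0.15 (adjusted p = 0.53), beside 436 of 6100 tested genes.

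In order of level, each gene's mean total RNA was lowest in RDY73 with IAA, next in RDY73 with DMSO or control, and highest in the 3 RDY234 groups. RPO31 averaged 123 ± 19.8 scaled total reads in RDY73 with IAA, 484 ± 58.6 in RDY73 with DMSO and 397 ± 18.6 in the RDY73 control. Its RDY234 averages were 685 ± 67.3 with IAA, 712 ± 38.2 with DMSO and 702 ± 145 in the control (SD, n = 3 each). RET1 averaged 110 ± 20.2 in RDY73 with IAA, 253 ± 38.1 with DMSO and 257 ± 7.01 in the control. In RDY234 it averaged 393 ± 36.0 with IAA, 465 ± 31.7 with DMSO and 454 ± 5.83 in the control. Within a strain, DMSO and control did not differ beyond the test's threshold for any of the 10 genes.

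The related genes of the RNA polymerase III system were described from lists chosen by function. Their counts per S. pombe read stand against the 83.9% of tested genes called lower in new RNA and the 77.9% called lower in total RNA in RDY73. The 2 subunits shared with RNA polymerase I fell in RDY73 with IAA. The log2 changes were −1.77 ± 0.29 for RPC40 and −2.33 ± 0.31 for RPC19 in new RNA, and −1.35 ± 0.14 for RPC40 and −1.34 ± 0.13 for RPC19 in total RNA. All 5 subunits shared by RNA polymerases I, II and III fell in new RNA, from RPO26 at −2.21 ± 0.25 to RPB8 at −0.76 ± 0.27 (adjusted p = 0.00734). Under relative scaling RPB8 was called higher in new RNA, at 0.93 (adjusted p = 0.00298). The medians of these 2 lists in total RNA were −1.34 and −1.22, near the −1.24 of all tested genes.

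Of the 6 genes for TFIIIC, the factor that binds the internal promoters of tRNA genes, 5 fell in new RNA in RDY73. TFC1 had the lowest value, −2.59 ± 0.30, and TFC7 was not called, at −1.59 ± 0.92 (adjusted p = 0.0966). All 4 genes for TFIIIB and TFIIIA fell, from BRF1, the TFIIIB subunit specific to RNA polymerase III, at −3.42 ± 0.66 (adjusted p = 7.82e-07), to SPT15, the TATA-binding protein used by all 3 polymerases, at −1.59 ± 0.24. Under relative scaling 1 of the 6 TFIIIC genes was called lower in new RNA, TFC1 at −0.90 (adjusted p = 0.0145). For TFIIIB and TFIIIA it was 1 of 4, BRF1 at −1.83 (adjusted p = 0.0486), with 11.6% of tested genes lower and 16.2% higher. In total RNA 3 of 6 and 3 of 4 were called lower, with 30.8% of tested genes lower and 29.6% higher. BRF1 was among them, at −1.04 (adjusted p = 6.9e-06), while SPT15 was called higher, at 0.34 (adjusted p = 0.00166). In total RNA all members of both lists fell per S. pombe read, with medians of −1.59 for TFIIIC and −1.73 for TFIIIB and TFIIIA.

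MAF1, the repressor of RNA polymerase III, fell in RDY73 with IAA, with log2 changes of −1.24 ± 0.41 in new RNA (adjusted p = 0.00344) and −0.86 ± 0.18 in total RNA. LHP1, the yeast La protein that binds the 3′ ends of new RNA polymerase III transcripts, also fell, with −1.33 ± 0.30 in new RNA and −1.12 ± 0.13 in total RNA. Neither was called under relative scaling.

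The genes specific to the other polymerases all fell per S. pombe read, as did 83.9% of tested genes in new RNA and 77.9% in total RNA. For RNA polymerase I, 7 of 7 fell in new RNA, from RPA12 at −2.42 ± 0.36 to RPA14 at −1.42 ± 0.27, and 7 of 7 in total RNA, with a median of −1.36. For RNA polymerase II, 7 of 7 fell in new RNA, from RPB9 at −2.91 ± 0.39 to RPO21, its largest subunit, at −1.21 ± 0.22, and 7 of 7 in total RNA, with a median of −1.35. The total RNA median of the RNA polymerase III subunits was −1.95. Under relative scaling 9 of 10 RNA polymerase III subunits were called lower in total RNA, with 30.8% of tested genes lower and 29.6% higher. The count was 3 of 7 for RNA polymerase I and 1 of 7 for RNA polymerase II, with 1 and 2 called higher. It was 3 of 6 for TFIIIC and 3 of 4 for TFIIIB and TFIIIA, with 0 and 1 called higher. In the 2 lists of shared subunits 0 genes were called on that scale. The difference between lists was not tested.

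Among themselves the 10 genes differed in how closely they followed the others over the 18 libraries, after the all-gene median of each library was removed. The Pearson correlation of a gene with the mean of the other 9 was highest for RPC53 (0.927) and RPO31 (0.903) and lowest for RPC11 (0.447) and RET1 (0.26). These correlations describe 18 libraries that fall into 6 groups and share their scaling, and were not tested. Genes outside the list were ranked by likeness only where they had at least 50 reads in every library and a window free of same-strand overlap, which left 2507 candidates. By that minimum 5 of the 10 genes themselves, RPC82, RPC34, RPC53, RPC25 and RPC17, would have been left out. Among the candidates, the 5 whose profiles were most like the mean of the 10 were CGR1 (r = 0.975), FYV7 (0.965), RSA3 (0.953), RBP95 (0.949) and PCC1 (0.948). CGR1, FYV7, RSA3 and RBP95 are known from ribosome synthesis, and PCC1 from the KEOPS complex that modifies tRNAs. Their total RNA changes with IAA in RDY73 ran from −2.70 ± 0.16 for FYV7 to −2.05 ± 0.15 for RSA3. The 18 libraries used to rank them include those of this comparison, so a fall follows from how they were picked.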

How the data were processed

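The authors made 3′ mRNA-seq libraries and took the reads through fastp, bbduk and SLAM-DUNK, per the series design text. Version 0.23.2 of fastp and the R64 genome come from the submitters' processing notes, and version 0.4.3 of SLAM-DUNK is that of the file headers. Trimming, mapping and calling settings, the use of strand and any removal of duplicate reads were not given in the sources used here. Raw counts per gene window were deposited by the authors, 4 tables for each of 18 libraries: all reads and T-to-C reads, for each species at thresholds of 1 and 2 conversions. Of 6465 S. cerevisiae windows, 6462 matched a gene of the RefSeq R64 annotation.

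From these counts, labelled reads (at least 2 conversions, 12 libraries) and all reads (18 libraries) were tested with edgeR 4.0.16 in R 4.3.3 (glmQLFit and glmQLFTest), with library scale set by the S. pombe reads, labelled or total to match, 1 mean per group and a shared spread. Genes needed at least 10 reads in at least 3 libraries. The SE is the log2 change divided by the square root of F. Ratios used exact permutation tests in SciPy 1.17.1. Counting intervals are exact binomial and cover counting error only. The fits were also run on simulated counts with 200 genes changed, far fewer than were called in RDY73 with IAA. That run cannot show how the calls hold when most genes move. Replicates differed beyond sampling noise in every pair of libraries of a group.

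The members and lists were chosen with earlier results of these data known. Named were all 10 members, the lowest and highest gene of each related list in new RNA of RDY73, every gene of lists of 3 or fewer, and the 5 genes most like the members. TFIIIC and the other lists were set by function. Alternatives were relative scaling, S. pombe TMM, DESeq2 1.42.0 with either size factor, filters, at least 1 conversion, background subtraction, all S. pombe reads as the scale, only the groups compared, a replicate block and leaving out each library. Multimapped reads made up 0.174% to 1.44% of the members' reads. RET1, RPC82, RPC31, RPC37, RPC25 and RPC11 overlap a gene on the opposite strand, and counts there are uncertain to that extent.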

Additional observations from a re-analysis of the deposited data

Results flagged for a closer look

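The effect of IAA differed between RDY73 and RDY234 for most of the subunit genes by the test of the difference itself (edgeR's quasi-likelihood test, adjusted p under 0.05). Values are log2 effects in RDY73 minus those in RDY234. In total RNA the difference was −1.91 for RPO31, −0.95 for RET1, −1.76 for RPC82, −1.91 for RPC34 and −1.80 for RPC31. It was −1.75 for RPC53, −1.32 for RPC37, −1.57 for RPC25, −1.82 for RPC17 and −1.49 for RPC11. In new RNA it was −2.39 for RPO31, −2.03 for RET1, −1.62 for RPC82, −4.28 for RPC34 and −3.02 for RPC31. It was −2.55 for RPC53, −3.81 for RPC37, −1.38 for RPC25 and −1.77 for RPC17. These values hold per S. pombe read, and most tested genes differed in the same direction.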

How the results depend on the processing

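The count of called subunit genes moved by over 1.5 times under scaling over S. cerevisiae genes, which takes out much of the shift shared by most genes. The median of all tested genes in new RNA of RDY73 with IAA was still −0.29 with TMM. With relative scaling (TMM) and with DESeq2's median of ratios the counts were 2 and 1, against 9, for new RNA of RDY73 with IAA. They were 3 and 1, against 9, for the strain difference of that effect, and 0 and 0, against 10, for new RNA of RDY73 DMSO against RDY234 DMSO. For the controls of the strains they were 2 and 0, against 10. DESeq2's median of ratios also gave 6, against 10, for the strain difference in total RNA. Leaving out 1 library gave 9 to 10 calls in new RNA of RDY73, 8 to 9 for its strain difference and 9 to 10 for the DMSO comparison, where RET1 was lost without RDY234 DMSO replicate C (−0.65, adjusted p = 0.0804).

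Signs reversed under those same scalings, given as TMM then DESeq2. They were 0.08 and 0.07 for RPC25 in new RNA of RDY73, and 0.18 and 0.17 for its strain difference. In the DMSO comparison they were 0.23 and 0.24 for RPO31, 0.18 and 0.18 for RET1, 0.11 and 0.12 for RPC82, 0.16 and 0.17 for RPC31, and 0.08 and 0.08 for RPC53. RET1 total RNA was 0.04 with DESeq2, and its strain difference 0.07 and 0.15. In controls they were 0.04 and 0.05 for RPC31, 0.11 and 0.11 for RPC25, 0.07 and 0.08 for RPC11, and 0.01 with DESeq2 for RPC17.

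Counts under the other alternatives were those reported, except with at least 1 conversion, which gave 10 in new RNA of RDY73, 10 for its strain difference and 8 in the DMSO comparison. There RPO31 (−0.30, adjusted p = 0.132) and RPC11 (−0.50, adjusted p = 0.0877) lost their calls in the DMSO comparison, and RPC11 gained a call in the strain difference (−1.58, adjusted p = 0.000315). The replicate block left the counts at 9 in new RNA and 10 in total RNA of RDY73. Same-letter libraries did not deviate together, with correlations of −0.11 to 0.19, so the letters were not taken as pairs. Over all genes, calls in new RNA of RDY73 were 4379 as reported, 1443 with TMM, 1309 with DESeq2's median of ratios and 2739 from only the groups compared. The causes of these moves, beyond the change of scale, were not tested. Depth limits new RNA most, since single genes rest on 2 to 38 labelled reads in RDY73 with IAA.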
